A study of Mus musculus with 28 samples.

Results

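Keratins of the hair follicle's inner root sheath and companion layer, together with trichohyalin, were followed over every sorted cell population of postnatal day 5 mouse back skin. The 10 genes were chosen by name: Krt25, Krt26, Krt27 and Krt28 (type I, acidic keratins), Krt71, Krt72, Krt73 and Krt74 (type II, basic keratins), Krt75 (a type II keratin of the companion layer) and Tchh (trichohyalin). Each matched 1 row among the 23015 rows of the deposited table, and all 10 passed the filter on low values, at least 1 FPKM in at least 2 libraries, which left 15052 genes for testing. By definition, FPKM scales the fragments of a gene to transcript length and to the fragments mapped in the library. Levels of different genes were set side by side on that basis. The scaling between libraries was not given in the sources used here.

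The inner root sheath is a rigid tube that moulds the growing hair shaft. It differentiates from dividing progenitors in the hair bulb, called the matrix, into the Henle layer, the Huxley layer and a cuticle. The companion layer lies between it and the outer root sheath, the basal keratinocyte sheath that continues the epidermis. A type I and a type II keratin pair to form each filament; trichohyalin granules then join the filaments after peptidylarginine deiminases and transglutaminases have modified and crosslinked them. Mutations of Krt25 or Krt71 give mice a wavy or curly coat.

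RNA from 14 populations with 2 libraries each was amplified and sequenced. All mice were 5 days old, on a mixed background (CD1, C57BI/6J and FVB/N). Mice carrying K14-H2BGFP, a histone reporter under the promoter of the basal keratin gene Krt14, together with Lef1-RFP were the source of 8 populations. Of these, Epi is epidermis sorted for GFP, prepared apart from the dermis. The dermal preparation gave ORS (GFP high, outer root sheath), Mx (GFP low, matrix), TAC (GFP low and Lef1-RFP positive, labelled as matrix progenitors that express Shh), Mc (Lef1-RFP and CD117 positive, melanocytes), DF (Lef1-RFP positive without CD117 or ITGA9, dermal fibroblasts), DP (Lef1-RFP positive, ITGA9 high, dermal papilla) and Neg, the cells negative for the markers. Papilla subsets carrying Lef1-RFP came from Sox2-GFP mice (ZZ-DP without GFP, G/AA-DP with GFP) and from Crabp1-GFP mice (G-DP without GFP, AA/ZZ-DP with GFP). The letters stand for hair types. HF-SC, precursors of the bulge stem cells, and HF-ORS, other outer root sheath cells, were both K14-RFP and ITGA6 high and were divided by Sox9-GFP, present in HF-SC and absent in HF-ORS. The labels give no genotype for the HF-SC and HF-ORS mice. No population was sorted as inner root sheath or companion layer, and no gate used any of the 10 genes.

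Summed FPKM per library ran from 285980.6 to 515224, and from 10951 to 12497 genes reached 1 FPKM. The number of reads per library was not given in the sources used here. Replicates correlated across genes with r from 0.884 to 0.966. The labels do not say that the 2 libraries of a population came from separate animals, so p-values measure the spread between these libraries, which may be technical. Markers fitted the labels in part. Shh stood at 70.5 and 55.0 FPKM in TAC and at 51.5 and 44.2 in Mx, against 4.07 and 2.09 in ORS. HF-ORS held the suprabasal epidermal keratin Krt10 at 1384 and 767 FPKM and HF-SC held it at 239 and 166. The ORS population had 7.67 and 4.09. DF replicate 1 stood apart from DF replicate 2 in keratinocyte genes, with Krt5 at 223 against 65.6 FPKM. The 8 melanocyte markers summed to 1361 and 1323 FPKM in DF and to 1076 and 1023 in G-DP. They summed to 32.05 and 727 in ZZ-DP, to 25.5 and 29.6 in DP and to 16060 and 12804 in Mc.

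The genes sit in 3 places of the mouse genome (GRCm38.p6, the build mm10). Krt25, Krt26, Krt27 and Krt28 are neighbours on the minus strand of chromosome 11, from Krt25 at chr11:99315516-99322951 to Krt28 at chr11:99365007-99374903. The type II genes lie on chromosome 15, with Krt75 at chr15:101563343-101573904 and, beyond Krt6b, Krt6a and Krt5, the run Krt71 (chr15:101733949-101743097), Krt74, Krt72 and Krt73 (chr15:101793304-101802360). Tchh is on the plus strand at chr3:93442330-93449077. RefSeq lists Krt74 as a transcribed pseudogene in the mouse. RefSeq's table of gene starts held 9 of the 10 genes, all but Krt74. The 250 bases upstream of the start are printed for Krt25, the most abundant type I gene, and for Krt27, which lies beyond Krt26. The same 250 bases are printed for 2 type II sheath genes and for Krt75, the companion layer keratin. They read 5′ to 3′ on the gene's own strand, and capitals mark the letters GATAA, the core bound by GATA factors such as Gata3, a regulator needed for the inner root sheath.
Krt25: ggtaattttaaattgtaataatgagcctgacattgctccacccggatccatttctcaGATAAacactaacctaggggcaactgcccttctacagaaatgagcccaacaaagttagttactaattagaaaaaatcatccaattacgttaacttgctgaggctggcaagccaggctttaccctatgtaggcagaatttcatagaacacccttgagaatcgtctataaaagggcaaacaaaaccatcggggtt
Krt27: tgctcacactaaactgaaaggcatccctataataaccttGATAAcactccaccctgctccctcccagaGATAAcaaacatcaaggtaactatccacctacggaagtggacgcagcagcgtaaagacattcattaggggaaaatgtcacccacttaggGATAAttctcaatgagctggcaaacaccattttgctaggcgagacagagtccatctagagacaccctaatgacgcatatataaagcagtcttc
Krt71: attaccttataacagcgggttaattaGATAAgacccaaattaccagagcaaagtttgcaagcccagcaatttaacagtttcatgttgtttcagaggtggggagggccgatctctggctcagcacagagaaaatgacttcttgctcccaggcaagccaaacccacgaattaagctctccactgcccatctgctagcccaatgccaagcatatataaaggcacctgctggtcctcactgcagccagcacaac
Krt73: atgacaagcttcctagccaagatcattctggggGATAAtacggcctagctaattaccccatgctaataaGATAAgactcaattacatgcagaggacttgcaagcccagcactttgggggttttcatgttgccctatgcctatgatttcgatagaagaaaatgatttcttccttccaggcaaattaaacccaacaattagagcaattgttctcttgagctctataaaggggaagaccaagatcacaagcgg
Krt75: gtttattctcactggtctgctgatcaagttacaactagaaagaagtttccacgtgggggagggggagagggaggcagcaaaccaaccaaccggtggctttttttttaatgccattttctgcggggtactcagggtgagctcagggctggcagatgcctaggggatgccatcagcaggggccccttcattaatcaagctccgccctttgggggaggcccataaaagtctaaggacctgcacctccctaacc

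These windows are chr11:99322952-99323201 for Krt25, chr11:99351119-99351368 for Krt27, chr15:101743098-101743347 for Krt71, chr15:101802361-101802610 for Krt73 and chr15:101573905-101574154 for Krt75, all on the minus strand. GATAA or its reverse complement TTATC occurred in 6 of the 9 windows, against 22.6% of 32851 promoter windows of the same length. Krt27 held 3 matches and Krt73 held 2, and 4.28% of all windows held 2 or more. All matches in these genes read GATAA on the gene's own strand. The homeodomain core TAATT (or AATTA) was found in 7 of the 9 windows, against 25.0% of all, and 6 of the 9 held 2 or more matches, against 9.43%. TATAAA (or TTTATA), the letters of the TATA box, was found in 7 of the 9, against 12.4%. A match began 30 bases upstream of the start in Krt25, Krt26, Krt28 and Krt73, 40 in Krt71 and 15 in Krt27. The match in Krt72 read TTTATA and began 203 bases upstream. CTTTGA (or TCAAAG), a core for Lef and Tcf factors, was found in 2 of the 9, against 13.8%. The motifs and the search for shared runs were chosen after these sequences had been seen, some TAATT matches overlap each other and, in Krt27, a GATAA match, and a match is a run of letters and not evidence of binding. Krt26, Krt72 and Krt75 held no GATAA or TTATC, and the windows of Krt26 and Krt72 are not printed. Among the 36 pairs of windows the longest run of shared letters was 14 bases, ttgcaagcccagca, in Krt71 and Krt73, and the median was 8.

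**Figure D1:**
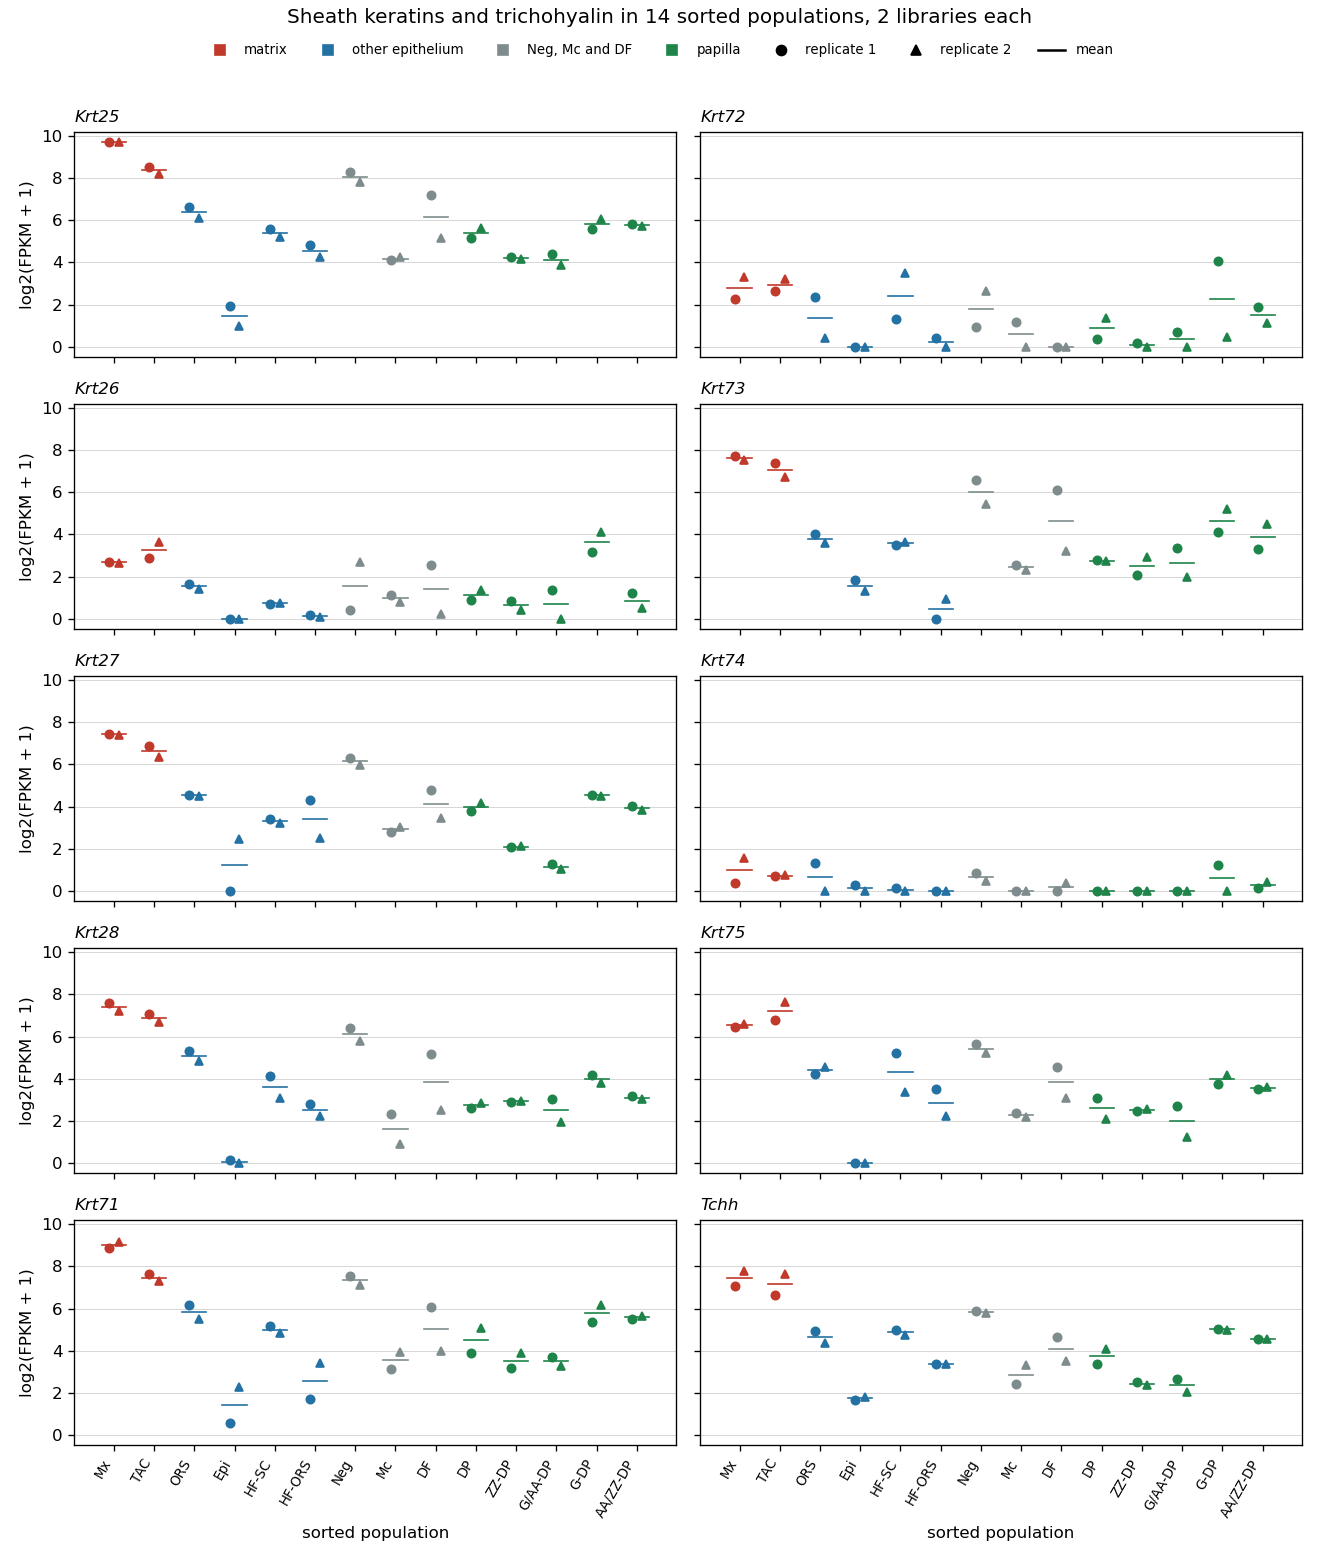
Level of the 10 genes, as log2(FPKM + 1), in each of the 28 libraries by population, with 1 point per library and a line at the mean. Krt25 reached 838 and 834 FPKM in Mx and stayed under 3 in Epi, while Krt26, Krt72 and Krt74 were low throughout.

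Of the type I keratins, Krt25 was the most abundant of the 10 genes in Mx. It was read at 837.6 and 833.9 FPKM in Mx, 366 and 294 in TAC, 314 and 223 in Neg, and 97.7 and 68.8 in ORS. Mx stood clear of every other population, TAC and Neg overlapped each other, and both lay above ORS. DF gave 144 and 35.0, so that its replicates lay on either side of ORS. HF-SC had 47.1 and 35.7 FPKM and HF-ORS 27.2 and 18.3. Levels in papilla sorts ran from 66.4 in G-DP down to 13.5 in G/AA-DP, melanocytes had 16.4 and 17.9, and Epi was lowest at 2.83 and 0.944. As a share of the Mx mean, TAC held 39.5%, Neg 32.2%, ORS 9.96%, DP 4.99% and Epi 0.23%. In bulk samples such as these, fewer cells of a type and less RNA per cell cannot be told apart.

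Krt27 and Krt28, which like Krt25 are known from all layers of the sheath in human follicles, followed the same leading order at a lower level. Krt27 stood at 173 and 170.0 FPKM in Mx, 117 and 80.3 in TAC, 77.3 and 62.8 in Neg, and 22.6 and 21.5 in ORS. Krt28 stood at 192 and 145 FPKM in Mx, 132 and 102 in TAC, 83.8 and 54.8 in Neg, and 38.3 and 27.8 in ORS. For both genes Mx, TAC, Neg and ORS did not overlap, although TAC replicate 2 and Neg replicate 1 were close for Krt27. G-DP held Krt27 at the level of ORS, 22.7 and 21.5 FPKM, and G/AA-DP was lowest among the dermal sorts at 1.40 and 1.06. Krt28 was lower in all papilla sorts than in ORS, from 17.3 in G-DP to 2.82 in G/AA-DP. Krt26, known from the sheath cuticle, had a median of 1.02 FPKM over the 28 libraries. It was highest in G-DP, at 7.88 and 16.5 FPKM, and next in TAC, at 6.27 and 11.5, with Mx at 5.56 and 5.32. G-DP and TAC overlapped, and both libraries of each lay above Mx.

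Krt71, the type II partner found in all sheath layers, was the second most abundant of the genes in Mx. It was read at 469 and 578 FPKM in Mx, 197 and 157 in TAC, 186 and 140.1 in Neg, 71.0 and 44.1 in ORS and 0.466 and 3.85 in Epi. TAC and Neg overlapped again, and G-DP (39.7 and 72.2) and AA/ZZ-DP (44.4 and 49.98) overlapped ORS. Krt73, known from the cuticle, was nearer to Krt27 and Krt28 in level: 208 and 184 FPKM in Mx, 167 and 104 in TAC, 94.1 and 43.1 in Neg, 15.3 and 10.9 in ORS and 2.57 and 1.48 in Epi. Mx, TAC and Neg did not overlap for Krt73. It was near the limit in HF-ORS, listed at 0 in replicate 1 and at 0.893 in replicate 2.

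Krt72, also a cuticle keratin, was low and varied between replicates. It ran from 0 to 15.7 FPKM, with 15.7 and 0.371 in the 2 libraries of G-DP, 1.44 and 10.2 in HF-SC, and 3.74 and 8.96 in Mx. It was listed at 0 in 8 of 28 libraries, and an exact 0 in a table without counts can be a failed estimate. Both libraries of Mx and of TAC (5.27 and 8.11) lay above those of Epi, Mc, DF, DP, ZZ-DP, G/AA-DP, AA/ZZ-DP and HF-ORS. Each population overlapped its neighbour in the order of means. Krt74 reached 1 FPKM in 3 libraries, Mx replicate 2 at 1.95, ORS replicate 1 at 1.49 and G-DP replicate 1 at 1.32, and was listed at 0 in 15.

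Krt75, the companion layer keratin, had another leading population. It was read at 110.4 and 199.96 FPKM in TAC, 85.8 and 96.6 in Mx, 48.3 and 36.1 in Neg, 17.9 and 22.2 in ORS, and was listed at 0 in both Epi libraries. Both TAC libraries lay above both Mx libraries. HF-SC had 36.8 and 9.44 FPKM, on either side of ORS, and HF-ORS 10.5 and 3.63. Krt6a, another companion layer keratin, went the other way between TAC and Mx. It was at 2.89 and 2.68 FPKM in TAC and 6.28 and 8.24 in Mx, a log2 difference of -1.12 that was not called. Tchh, the granule protein of the sheath and medulla, did not separate the leading populations: 133 and 222 FPKM in Mx overlapped 99.8 and 199 in TAC. Neg followed at 58.6 and 54.6 FPKM, and ORS had 30.1 and 20.0. Tchh in G-DP, at 32.2 and 31.2, was above both ORS libraries. For 5 genes (Krt27, Krt28, Krt73, Krt75 and Tchh) all 4 Mx and TAC libraries lay above the 24 others, a pattern met by 0.957% of the genes tested.

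The mixture of the 10 genes differed less between populations than their level did. Their summed FPKM was 2108 and 2246 in Mx, 1201 and 1157 in TAC, 865 and 626 in Neg, 301 and 217 in ORS, and 8.37 and 13.2 in Epi. Krt25 made up between 22.3% and 40.2% of that sum in the 26 libraries other than Epi, with a median of 33.0%. The 4 type I genes summed to between 1.01 and 2.66 times the 4 type II sheath genes in the 24 libraries left when HF-ORS was also set aside. HF-ORS replicate 1 lay outside at 20.15, with a type II sum of 2.58 FPKM against 10.5 in replicate 2 and a type I sum of 52.0 against 26.5. Krt75 as a percentage of Krt25 was 10.2 and 11.6 in Mx, 15.4 and 16.2 in Neg, 18.4 and 32.3 in ORS, and 30.2 and 67.9 in TAC. TAC held more Krt75 for its Krt25 than Mx in both libraries, but so did most populations: over the 26 libraries other than Epi the share had a median of 21.6%, from 6.75% in DP replicate 2 to 78.0% in HF-SC replicate 1.

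**Figure D2:**
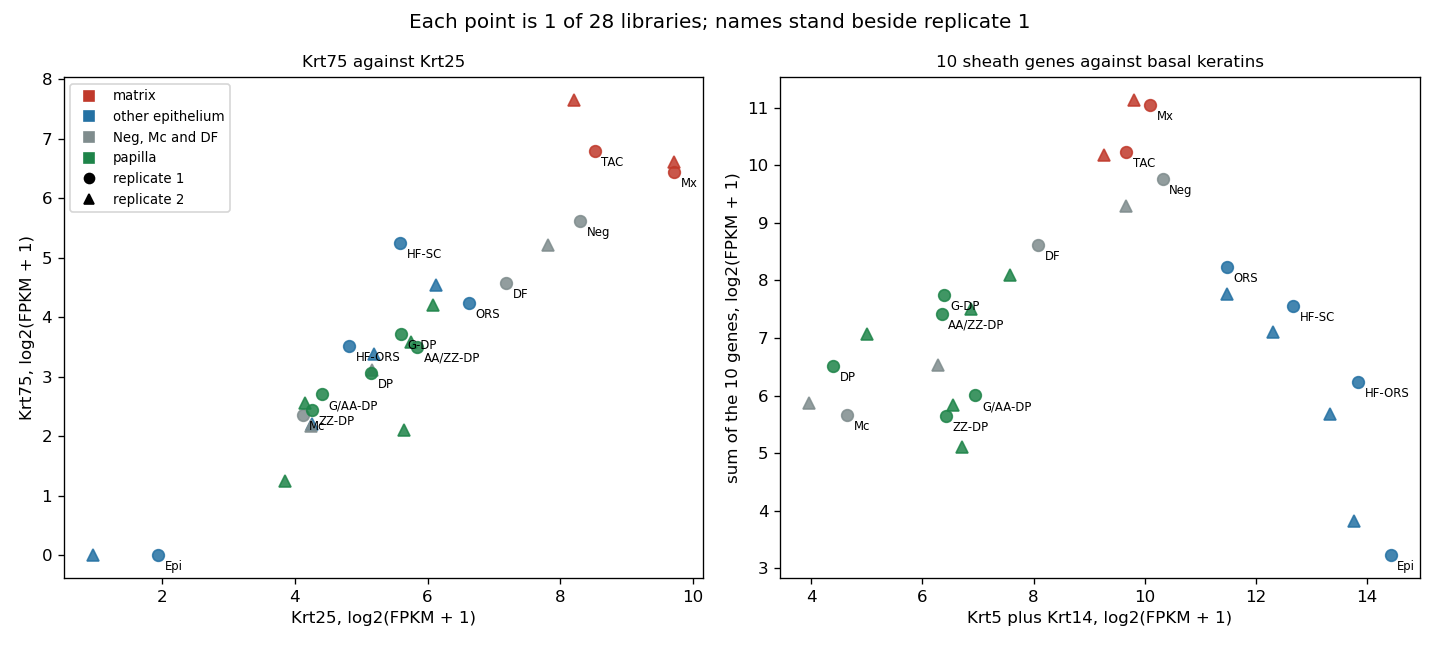
Left, Krt75 against Krt25; right, the sum of the 10 genes against Krt5 plus Krt14, the basal keratins; all as log2(FPKM + 1), with 1 point per library, circles for replicate 1 and triangles for replicate 2. Both TAC points lie above Mx for Krt75 and to its left for Krt25, and the epidermal libraries lie lowest at right with sums of 8.37 and 13.2 FPKM.

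Matrix against outer root sheath compared the GFP-low and GFP-high keratinocytes of the same mouse line. Of the 10 genes 7 were higher in Mx and none was lower, at an adjusted p of at most 0.05 and a log2 change of at least 1, where 1.2% of all genes tested were called higher and 2.64% lower. Changes are on the scale log2(FPKM + 1), tested with limma and adjusted by Benjamini-Hochberg over all 15052 genes; this scale understates the change of low genes. Krt73 rose by 3.82 ± 0.68 (SE, adjusted p = 0.00168), Krt25 by 3.33 ± 0.45 (adjusted p = 0.000192) and Krt71 by 3.19 ± 0.63 (adjusted p = 0.00416). Krt27 rose by 2.90 (adjusted p = 0.00435), Tchh by 2.76 (adjusted p = 0.000295), Krt28 by 2.32 (adjusted p = 0.0337) and Krt75 by 2.13 (adjusted p = 0.0416). Krt72, Krt26 and Krt74 were not called, with log2 differences of 1.40, 1.15 and 0.31. By library, both Mx libraries lay above both ORS libraries for 8 of the 10, against 23.8% of all genes. The median log2 change was 2.54 for the 10 genes and 0.016 for all genes. Krt28 and Krt75 lost their call whenever 1 library of Mx or of ORS was left out. Krt27 and Krt71 lost it without Mx replicate 2 or without ORS replicate 2, which left 3 genes called in each case, and a pseudocount of 0.1 left 4, without Krt27, Krt28 and Krt75.

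Matrix against epidermis gave the widest differences. In Mx 9 of the 10 genes were higher, where 5.12% of all genes were called higher and 6.14% lower. Krt25 rose by 8.26 ± 0.45 on the log2 scale (limma, adjusted p = 1.33e-10), Krt71 by 7.61 (adjusted p = 5e-08), Krt28 by 7.34 (adjusted p = 5.16e-08), Krt75 by 6.52 (adjusted p = 1.27e-07) and Tchh by 5.69 (adjusted p = 4.39e-09). Both Mx libraries lay above both Epi libraries for 10 of 10, against 29.9% of all genes. Krt74, at 0.83, was not called (adjusted p = 0.244). Krt26 and Krt72 were called at adjusted p = 0.00984 and 0.0495 and lost the call with any 1 library of Mx or of Epi left out. Epi held the epidermal differentiation markers at a summed 9554 and 7959 FPKM over 7 genes, against 98 and 60.8 in Mx. Krt10, the next keratin gene on chromosome 11 after Krt28, stood at 3811 and 2571 FPKM in Epi and 4.38 and 3.25 in Mx, so that Krt28 and Krt10, neighbours, had opposite levels in these sorts. On chromosome 15, Krt5 (917 and 764 in Mx, 15798 and 9569 in Epi) lies next to Krt71, and Krt1 was at 0.647 and 0.273 in Mx against 3434 and 2643 in Epi.

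**Figure D3:**
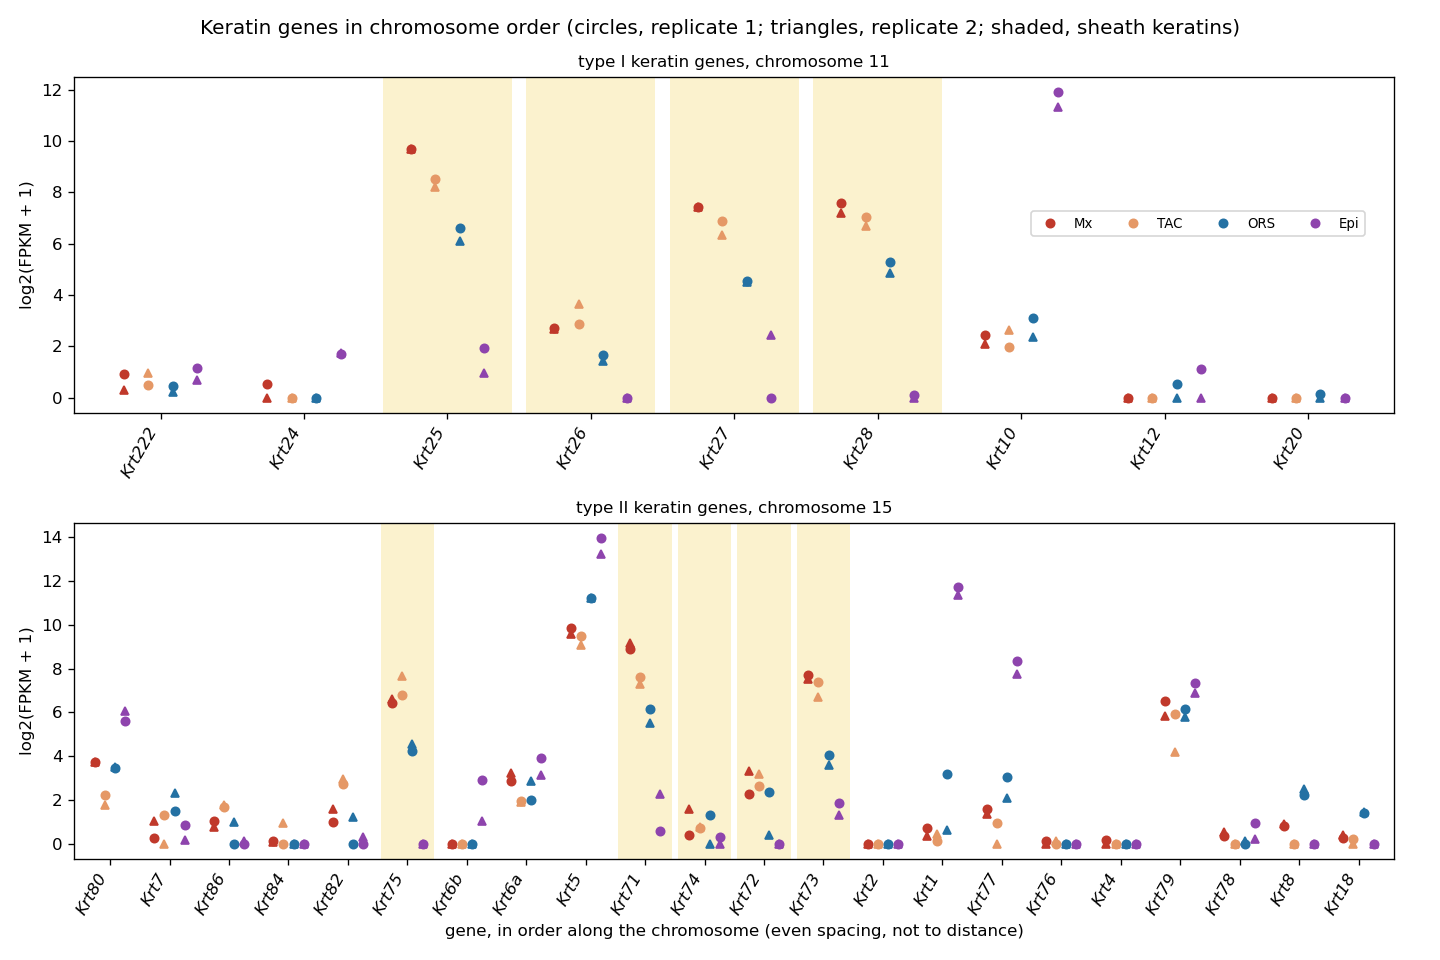
Log2(FPKM + 1) of each keratin gene in chromosome order on chromosomes 11 and 15, evenly spaced, with 1 point per library of Mx, TAC, ORS and Epi. Krt25, Krt27 and Krt28 were high in Mx while Krt26, between them, was at 5.56 and 5.32 FPKM, and Krt10 was at 3811 and 2571 in Epi and at 4.38 and 3.25 in Mx.

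Neg against Mx, TAC against Mx and the comparisons above share the Mx libraries. In TAC against Mx none of the 10 genes was called by limma, where 1.04% of all genes were called higher and 0.233% lower. At an unadjusted p under 0.05 there were 2 of the 10 and 1439 genes in all. Those 2 were Krt25, with a log2 difference of -1.35 ± 0.45 (limma, adjusted p = 0.209), and Krt71, with -1.56 ± 0.63 (limma, adjusted p = 0.37). Krt75 differed by 0.70 ± 0.58 in the other direction (adjusted p = 0.854). By library, Krt25, Krt27, Krt28, Krt71 and Krt73 were lower in both TAC libraries than in both of Mx, a pattern of 19.8% of all genes, and Krt26 and Krt75 were higher in both, a pattern of 21.1%. Beside these values 6 of 8 fibroblast markers and 4 of 10 papilla markers were higher in TAC. The fibroblast markers summed to 533 and 461 FPKM in TAC and 497 and 421 in Mx, most of it the matrix proteoglycan gene Dcn in Mx (482 and 407, against 307 and 294 in TAC). The 7 others summed to 226 and 167 in TAC and 15.5 and 13.8 in Mx. The melanocyte markers summed to 275 and 182 against 40.1 and 47.7 with none of 8 called, and the papilla markers to 74.6 and 99.7 against 16.9 and 22.4, with 1 papilla and 1 melanocyte marker listed at 0 in both Mx libraries. Their part in the result was not tested.

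Neg, which was not gated as keratinocyte, still held the third highest Krt25, Krt27, Krt28, Krt71, Krt73, Krt75 and Tchh. Of the 10 genes 2 were lower than in Mx, Tchh at -1.59 ± 0.40 (limma, adjusted p = 0.018) and Krt25 at -1.65 ± 0.45 (adjusted p = 0.0309), where 0.12% of all genes were called lower and 5.05% higher. All 10 log2 differences were negative, with a median of -1.289 against -0.052 for all genes, and 7 genes were lower in both libraries, against 25.1% of all. The basal keratinocyte markers summed to 1857 and 1206 FPKM in Neg and 1686 and 1383 in Mx. In Neg 7 of 8 melanocyte markers (671 and 914 FPKM summed, against 40.1 and 47.7) and 7 of 7 endothelial markers (119 and 184, against 10.6 and 13.4) were higher. So were 5 of 8 fibroblast markers (586 and 487, against 497 and 421, most of the latter Dcn) and 4 of 6 tested leukocyte markers (29.1 and 25.1, against 0.50 and 3.18). Their part in the result was not tested. Neither call held in a fit to the K14-H2BGFP libraries alone or after quantile normalization. The 2 calls did not hold together with any 1 library of Neg or of Mx left out.

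HF-SC against HF-ORS divided keratinocytes high for K14-RFP and ITGA6 by Sox9-GFP; both are labelled as follicle cells. Marker levels go against that label in part, more so in HF-ORS. Hoxc13, a follicle regulator, was at 15.8 and 11.6 FPKM in HF-SC and 4.31 and 3.02 in HF-ORS, against 38.0 and 48.5 in ORS. Suprabasal epidermal markers were high in both populations, against a sum of 94.3 and 57.9 FPKM in ORS. In HF-SC 3 of the 10 genes were higher, where 2.66% of all genes were called higher and 1.73% lower. Krt73 (10.3 and 11.6 FPKM against 0 and 0.893) rose by 3.12 ± 0.68 on the log2 scale (limma, adjusted p = 0.00919). Krt71 (35.0 and 27.4 against 2.24 and 9.61) rose by 2.45 ± 0.63 (adjusted p = 0.0293). Tchh (30.4 and 26.3 against 9.50 and 9.39) rose by 1.49 ± 0.40 (adjusted p = 0.0344). Krt75 was not called, with a log2 difference of 1.45 (adjusted p = 0.189), and Krt27 was at -0.08. For 7 of the 10 genes both HF-SC libraries lay above both HF-ORS libraries, against 18.5% of all genes. The 7 suprabasal epidermal markers summed to 1192 and 950 FPKM in HF-SC and 4451 and 4222 in HF-ORS, with 3 called lower in HF-SC and none listed at 0. The 8 basal markers summed to 8437 and 6872 against 17090 and 12533, with none called. Their part in the result was not tested. In a fit to these 4 libraries alone no gene of the 10 was called, with adjusted p = 0.0594 for Krt73, 0.104 for Tchh and 0.111 for Krt71, and leaving out 1 library at a time left 0 to 2 genes.

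**Figure D4:**
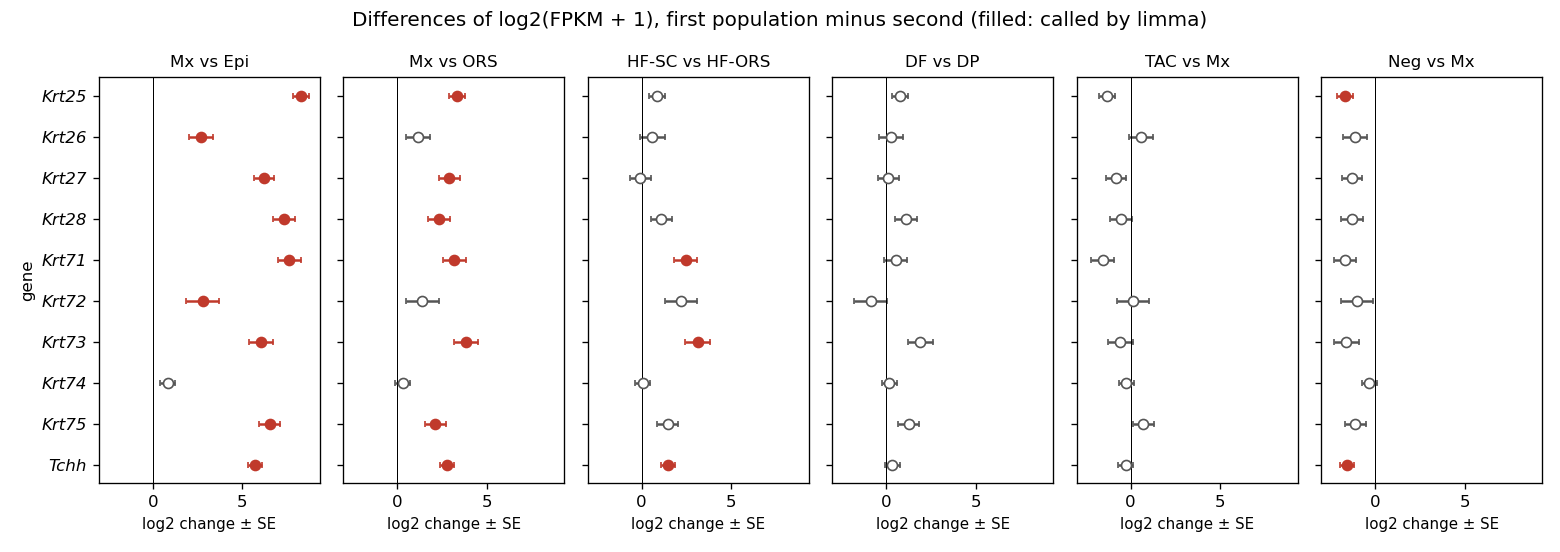
Log2 change with its standard error for each of the 10 genes in the 6 comparisons, on the scale log2(FPKM + 1). Filled points passed the threshold: 7 genes in Mx against ORS, 9 in Mx against Epi, 2 in Neg against Mx, 3 in HF-SC against HF-ORS and none in the other comparisons.

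The sorts gated on mesenchymal or melanocyte markers held these RNAs too. Melanocytes had Krt71 at 7.79 and 14.5 FPKM and Krt27 at 5.98 and 7.29. The 10-gene sum was 90.3 and 133 FPKM in DP, from 170.0 to 274 in the 4 libraries of the Crabp1-GFP papilla subsets and from 33.6 to 63.4 in the 4 of the Sox2-GFP subsets. The Crabp1-GFP and Sox2-GFP values did not overlap. Krt27, for example, was at 15.4 and 13.4 FPKM in AA/ZZ-DP, against 3.28 and 3.32 in ZZ-DP and 1.40 and 1.06 in G/AA-DP, and Tchh at 22.5 and 22.8 in AA/ZZ-DP, against 4.74 and 4.13 in ZZ-DP. The mouse line and the sort cannot be told apart there, and the difference was not tested. Set against the basal keratins Krt5 plus Krt14, the 10-gene sum was 453% and 432% in DP, 207% and 395% in Mc, 145% and 119% in DF, from 144% to 259% in the Crabp1-GFP and from 32.2% to 61.2% in the Sox2-GFP papilla subsets. It was 193% and 252% in Mx, 148% and 187% in TAC, 67.5% and 77.1% in Neg, 10.5% and 7.6% in ORS, 2.88% and 2.71% in HF-SC, 0.51% and 0.48% in HF-ORS and 0.04% and 0.09% in Epi. The 10-gene sum in DF was 391 and 91.4 FPKM in the 2 replicates. In DF against DP none of the 10 was called by limma, where 4.25% of all genes were called higher and 2.44% lower. At an unadjusted p under 0.05 stood 2 of the 10, Krt73 at 1.91 (adjusted p = 0.106) and Krt75 at 1.26 (adjusted p = 0.244), and 2848 genes in all. By library, Krt73 and Krt75 were higher in both DF libraries than in both of DP (21% of all genes), Krt72 was lower in both (22.1%), and the other 7 genes overlapped. DF replicate 1 held Krt25 at 144, Krt73 at 67.9 and Krt71 at 65.8 FPKM against 35.0, 8.32 and 14.9918 in replicate 2. Without that library the log2 differences of Krt25, Krt26, Krt27, Krt28, Krt71 and Tchh turned negative, at -0.23, -0.89, -0.54, -0.23, -0.50 and -0.21. Without DF replicate 2, Krt25, Krt28 and Krt73 were called higher; the lone DF library was there assumed to vary like the other populations, as in every fit with 1 library left out. Beside this, 6 of 8 basal keratinocyte markers (558 and 181 FPKM in DF against 53.2 and 54.7 in DP) were higher in DF. So were 8 of 8 melanocyte markers (1361 and 1323 against 25.5 and 29.6) and 6 of 13 regulators of the matrix and inner sheath. Their part in the result was not tested.

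The other genes of the sheath programme were read from gene lists. Of 18 genes for sheath and envelope hardening (transglutaminases, peptidylarginine deiminases and their substrates) 17 were tested, and 6 were higher in Mx than in ORS with none lower: Tgm6, S100a3, Tgm1, Crnn, Tgm3 and Ppl. Among all genes tested, 1.2% were called higher there and 2.64% lower. The transglutaminase gene Tgm6 rose by 2.50 ± 0.39 (adjusted p = 0.000608), from 0.545 and 1.26 FPKM in ORS to 7.93 and 11.5 in Mx. In TAC it stood at 70.8 and 97.99, higher than in Mx by 2.995 ± 0.39 on the log2 scale (adjusted p = 0.000341). Ivl (involucrin) and Padi1 were also higher in TAC and none of the 17 was lower, where 1.04% of all genes were called higher and 0.233% lower. Padi3, a deiminase that modifies trichohyalin, was read at 67.0 and 78.4 FPKM in TAC against 14.3 and 23.5 in Mx without being called. In Mx against Epi 5 of the 17 were higher and 3 lower, against 5.12% and 6.14% of all genes. The lower ones were Casp14, Tgm3 and Cst6, which the epidermis also uses. The epidermal and follicular transglutaminase Tgm3 was lower in HF-SC than in HF-ORS by a log2 difference of -3.39 ± 0.52 (adjusted p = 0.000397), while Tgm5 and Cst6 were higher. Among all genes, 1.73% were called lower there and 2.66% higher. None was called in Neg against Mx, and 5 were higher in DF than in DP.

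Of 13 regulators of the matrix and inner sheath, 7 were higher in Mx than in ORS (Shh, Ovol1, Lef1, Sox21, Foxn1, Msx2 and Trps1) and 1, the vitamin D receptor Vdr, was lower. Among all genes, 1.2% were called higher there and 2.64% lower. Lef1 was part of the TAC gate but not of the Mx and ORS gates. Shh, the signal that matrix cells send, rose by 3.62 ± 0.67 (adjusted p = 0.00255) and Ovol1, a zinc finger repressor, by 3.27 ± 0.50 (adjusted p = 5e-04). Gata3 was read at 61.1 and 56.9 FPKM in Mx, 28.4 and 21.5 in ORS and 31.9 and 23.998 in TAC. It differed by 1.22 between Mx and ORS (adjusted p = 0.222) and by -1.07 between TAC and Mx (adjusted p = 0.456), and was not called in either. Epi held Gata3 at 49.2 and 61.4 FPKM with the sheath keratins near 0. None of the 13 was called between TAC and Mx or between Neg and Mx. In Mx 9 were higher than in Epi, against 5.12% of all genes. In HF-SC 3 (Vdr, Hoxc13 and Trps1) were higher than in HF-ORS, against 2.66% of all genes. In DF 6 were higher than in DP (Hoxc13, Shh, Dlx3, Sox21, Foxn1 and Ovol1), against 4.25% of all genes.

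Calls among keratins of the neighbouring layers varied with the comparison. Of the outer sheath and companion keratins, 5 of 8 (Krt5, Krt14, Krt15, Krt6b and Krt16) were lower in Mx than in Epi, against 6.14% of all genes. In DF 3 of 8 (Krt5, Krt14 and Krt17) were higher than in DP, against 4.25% of all genes. Krt5 and Krt14 also count among the basal keratinocyte markers, and Krt6a was called in neither comparison. Of 8 outer sheath and companion keratins, Krt15, a keratin of basal cells and the bulge, was the 1 called between Mx and ORS, falling from 795 and 843 FPKM in ORS to 119 and 83.2 in Mx (log2 change -3.03 ± 0.42, adjusted p = 0.000214). It was lower again in TAC, at 18.8 and 17.2. In HF-SC Krt79 (176 and 149 FPKM against 2.99 and 6.69) and Krt6a, a companion layer keratin (27.6 and 16.8 against 1.98 and 6.90), were higher than in HF-ORS. Of 15 hair shaft keratins 12 were in the table and 10 were tested. Krt35, an early keratin of the shaft, was the 1 called higher in Mx than in ORS, at 102 and 132 FPKM against 1.84 and 4.80. It stood at 339 and 263 in TAC without being called there, and Krt36 was the 1 called higher in TAC than in Mx.

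The 10 genes varied together over the 14 populations. The 7 abundant ones (all but Krt26, Krt72 and Krt74) had Pearson r between 0.863 and 0.972 on log2 means in their 21 pairs, the closest being Krt25 and Krt71. The 24 pairs with Krt26, Krt72 or Krt74 ran from 0.721 to 0.898. These values describe 14 population means that share libraries and tissue, and carry no test. Among 11089 other genes those whose log2 means were most like the mean of the 10 were Prr9 (r = 0.931), Fbp1 (0.92), Pkp2 (0.918), Mapk12 (0.918) and Dlx3 (0.908). Fbp1 was closest to Krt73 (0.965), Dlx3, a homeodomain factor of the matrix, to Krt28 (0.954) and to Krt25 (0.901), and Pkp2, a desmosome protein, to Krt75 (0.933) and Tchh (0.926). Prr9 averaged 43.4 FPKM in Mx, 33.1 in TAC, 1.96 in ORS and 0.08 in Epi. Dlx3 averaged 231 in Mx, 269 in TAC, 65.5 in ORS and 2.92 in Epi.

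In the annotation GENCODE M21, 10.9% of the 50-base words in Krt25 transcripts and 11.1% of those in Krt27 transcripts also occurred in another gene, 167 of them shared by Krt25 and Krt27. The share was 2.43% or less for the other 8 genes and 0 for Krt75 and Tchh. Whether these stretches changed a level was not tested.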

How the data were processed

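The deposited table gives FPKM per gene in 28 libraries. Per the submitters' processing notes the tools were TopHat2 2.0.3, Bowtie2 and Cufflinks 2.1.1 with the build mm10; the annotation, filters and scaling between libraries were not given in the sources used here. Per the labels' protocols, RNA had a RIN of at least 8.8, and 6 ng was amplified with a NuGEN kit, 100 ng of cDNA entering each library. Without read counts, depth is unknown and no counting interval is given.

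Of 23235 rows, 220 exact repeats were dropped. The test ran over the 15052 genes that reached 1 FPKM in 2 or more libraries, on log2(FPKM + 1), with limma 3.58.1 in R 4.3.3, in 1 fit over the 14 populations without a replicate term (14 residual degrees of freedom), with Benjamini-Hochberg adjustment over all genes. Calls needed an adjusted p of at most 0.05 and a log2 change of at least 1. Genes named beyond the 10 are those called within the lists, those most like the 10 by Pearson r on log2 population means (candidates reached a mean of 5 FPKM in a population and had a gene name of their own, not a clone or predicted-gene identifier), the neighbouring keratins, and genes that bear on a result. Small-RNA names and every symbol that begins with Rn, some of them named genes, were also left out of the candidates. The 10 genes, the lists and the comparisons were chosen with earlier results of these data known. Alternatives were other pseudocounts (0.1 and 5), other filters, quantile normalization, fits to 1 mouse line and a replicate block. Each library of the 2 populations compared was also left out in turn, and the libraries of the other populations were always kept. RefSeq sequences and positions are from GRCm38.p6.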

Additional observations from a re-analysis of the deposited data

How the results depend on the processing

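Counts are of the 10 genes called, then of all genes. With 1 library left out, Mx against ORS gave 3 to 5 instead of 7 (192 to 409 instead of 577), TAC against Mx 0 throughout (51 to 84 instead of 191), Neg against Mx 0 to 1 instead of 2 (360 to 598 instead of 778), DF against DP 0 to 3 instead of 0 (522 to 1003 instead of 1007), Mx against Epi 7 instead of 9 (1046 to 1273 instead of 1694) and HF-SC against HF-ORS 0 to 2 instead of 3 (312 to 751 instead of 662). A pseudocount of 0.1 gave 4 in Mx against ORS and 1 in Neg against Mx. Neg against Mx gave 1 with no filter, 0 after quantile normalization and 0 in the fit to its mouse line. HF-SC against HF-ORS gave 0 in the fit to its line, with 108 genes in all. A pseudocount of 5 gave 407 genes in Neg against Mx and 668 in DF against DP, and quantile normalization gave 121 in TAC against Mx. The causes were not tested, beyond the fewer libraries in some of these fits.

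The labels do not say what a replicate number marks, so the numbers were not taken to pair the samples. Deviations of same-numbered libraries correlated with r from 0.057 to 0.275 in the K14-H2BGFP line (27 of 28 pairs over 0.1), 0.283 and 0.285 in the Crabp1-GFP and Sox2-GFP lines and 0.071 for HF-SC with HF-ORS. The pair at 0.057 was Mx with DP, which was not compared here. The K14-H2BGFP pairs that were compared ran from 0.123 (Epi with Mx) to 0.265 (ORS with Mx), all over 0.1. A replicate block called 1 of the 10 genes in DF against DP (Krt73), and gave 336 genes in TAC against Mx and 1125 in HF-SC against HF-ORS.

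Of 652 single-gene values recomputed, 568 kept direction and call, 60 lost the call (36 of them with 1 library left out), 5 gained it and 19 changed sign; none that changed sign was called. Besides those named above, Mx against ORS lost Krt28 and Krt75 with no filter and after quantile normalization and Krt28 in the fit to its line; Mx against Epi lost Krt72 with a pseudocount of 5, with no filter and after quantile normalization; HF-SC against HF-ORS lost Krt71 with a pseudocount of 0.1 or no filter, Krt73 with a pseudocount of 5 and Tchh after quantile normalization. With 1 library left out, the log2 difference of Krt74 in Mx against ORS ran from -0.348 (without ORS replicate 2; -0.281 without Mx replicate 2) to 0.97. In TAC against Mx, Krt72 ran from -0.399 (without Mx replicate 1; -0.133 without TAC replicate 2) to 0.672, Krt74 from -0.84 to 0.344 (without Mx replicate 2) and Tchh from -0.778 to 0.206 (without TAC replicate 1; 0.081 without Mx replicate 2). In Neg against Mx, Krt26 ran from -2.255 to 0.029 (without Neg replicate 1) and Krt74 from -0.913 to 0.271 (without Mx replicate 2). In DF against DP the lowest values came without DF replicate 1 and the highest without DF replicate 2: Krt25 -0.225 to 1.782, Krt26 -0.894 to 1.454, Krt27 -0.542 to 0.787, Krt28 -0.225 to 2.453, Krt71 -0.495 to 1.567 and Tchh -0.207 to 0.905. Without DP replicate 1, Krt27 was -0.053 and Krt71 -0.061, and a pseudocount of 0.1 put Krt26 at -0.112. In HF-SC against HF-ORS, Krt27 ran from -0.984 to 0.822 (without HF-ORS replicate 1).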
